A study of Mus musculus with 21 samples.

Results

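Transcripts of 28 genes of the tricarboxylic acid (TCA) cycle and of the reactions that feed it were followed in mouse embryonic stem cells (ESCs). They were chosen by gene symbol from 40838 genes in each of 2 count tables, and every one was listed in both tables. They comprise 15 enzymes and enzyme subunits of the cycle and its isozymes, 3 malic enzymes, 6 enzymes of glutamine, glutamate and transamination, and 4 enzymes of 2-hydroxyglutarate and GABA metabolism. The symbols were picked for their roles, with earlier results of these data known. Of the 28, 27 passed the filter on low counts in each table. Me3, the third malic enzyme gene, did not.

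The TCA cycle is a ring of mitochondrial reactions that oxidizes acetyl groups to carbon dioxide and delivers electrons to the respiratory chain. Its intermediates are also withdrawn for the synthesis of lipids and amino acids, and anaplerosis is their replacement, from pyruvate or from glutamine by way of glutamate and 2-oxoglutarate. In ESCs the cycle supplies 2-oxoglutarate, the cosubstrate of dioxygenases that demethylate DNA and histones, and ESCs in medium with serum are known to draw much of it from glutamine.

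Poly(A) RNA was sequenced in 21 libraries of 8 groups, all in a DMEM and NB mixture with 10% dialyzed serum and 0.2 mM pyruvate, kept for 48 h per the design text. SL is read here as serum plus LIF, the cytokine that keeps ESCs undifferentiated, and SL2i as the same medium plus inhibitors of GSK3B and MEK. The first table held cells with an empty vector in SL (3 libraries) and cells with LbNOX in SL (3 libraries), LbNOX being an NADH oxidase of bacterial origin, which regenerates NAD+. The second table held a line called chr8A, read here as the control, and SLC16A1 clone 1 and clone 2, each with 3 libraries in SL and 2 in SL2i. Each SLC16A1 group is 1 clone. How the clones were made and which promoter drives LbNOX are not given in the sources used here. Nothing in the labels says that the libraries of a group came from separate cultures, so p-values measure the spread between libraries, which may be technical.

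Total counts were 16521594 to 30008895 per library in the LbNOX table, 15802072 to 30145771 in SL in the other table and 9784408 to 10908368 in SL2i. Medium therefore cannot be told apart from the set and depth of the libraries. Slc16a1, which encodes the pyruvate and lactate transporter MCT1 and names the clones, was transcribed in all groups. In SL it lay at 195 to 201 counts per 1000000 counts (CPM) in chr8A, 162 to 182 in clone 1 and 91.4 to 96.5 in clone 2, and in SL2i at 157 to 167, 122 to 123 and 78.5 to 78.7. All 10 pluripotency markers were above 1 CPM in each group, and their sum was 4540 to 5290 CPM in SL and 7420 to 7870 CPM in SL2i. From SL to SL2i 7 rose and 3 fell in chr8A, and 7 rose and 2 fell in each clone. These are 100%, 90% and 90%, against 72.8%, 73% and 73.1% of all genes tested. Utf1 fell by 1.98 ± 0.042, 1.19 ± 0.039 and 1.30 ± 0.039 on the log2 scale in chr8A, clone 1 and clone 2. Tdgf1 fell by 0.10 ± 0.031, 0.32 ± 0.031 and 0.22 ± 0.031. The sum of 8 fibroblast markers was 23.5 to 48.1 CPM in SL and 9.18 to 11.2 CPM in SL2i, with Col3a1, Dcn and Postn at 0 in every SL2i library. Another of them, Pdgfrb, rose in SL2i by 1.82 ± 0.23, 2.25 ± 0.26 and 2.63 ± 0.24 on the log2 scale in chr8A, clone 1 and clone 2. At 5.89 to 7.39 CPM it made up most of that sum. Dcn had only 6 to 23 reads per SL library of these lines, and Postn, with 0 to 15, was not tested. Col1a1, with more reads, fell by 3.67 ± 0.18, 3.95 ± 0.19 and 3.62 ± 0.18. The sum of 8 primitive endoderm markers was 18.0 to 27.6 CPM in SL and 5.41 to 10.8 CPM in SL2i. Among them Gata4, Sox7, Dab2 and Amn fell in all 3 lines, with Sox7 at 0 in both SL2i clone 1 libraries. Foxa2 was at 0 in both SL2i chr8A libraries, but had only 3 to 7 reads per SL chr8A library and was not tested in these lines. Pdgfra rose in chr8A only, by 1.04 ± 0.44, and Gata6 in clone 2 only, by 1.23 ± 0.50. The part of these other cells in the results on medium was not tested. In bulk RNA, fewer cells of a type and less RNA per cell cannot be told apart.

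Levels of different genes were compared as CPM per kilobase of exon. In chr8A cells in SL the highest was Mdh2, mitochondrial malate dehydrogenase, at 241 ± 6.35 (SD, n = 3), followed by Glud1, the glutamate dehydrogenase that makes 2-oxoglutarate, at 168 ± 5.56. Cs, the citrate synthase that starts the cycle, came next at 109 ± 2.39. These 3 did not overlap with one another. The subunits of the NAD-dependent isocitrate dehydrogenase lay close together, Idh3b at 81.0 ± 2.78, Idh3a at 73.2 ± 1.10 and Idh3g at 68.6 ± 4.77, and between Idh3a, Suclg1 (71.3 ± 2.86) and Idh3g the order is within the spread. The low end held Gpt (3.45 ± 0.491), Aldh5a1 (3.30 ± 0.065), D2hgdh (1.97 ± 0.148), Abat (1.64 ± 0.227) and Adhfe1 (0.394 ± 0.0872). Gpt and Aldh5a1 did not differ beyond their spread. Me3 had 3 to 9 reads per library in chr8A in SL and none in the 2 SL2i libraries, where 3 reads would be 0.290 and 0.296 CPM. In SL2i, Mdh2 (292 ± 4.28, n = 2), Glud1 (182 ± 2.95) and Cs (144 ± 0.833) kept ranks 1 to 3, whereas Idh1 went from rank 12 to 6 and Glul from 9 to 15.

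**Figure D1:**
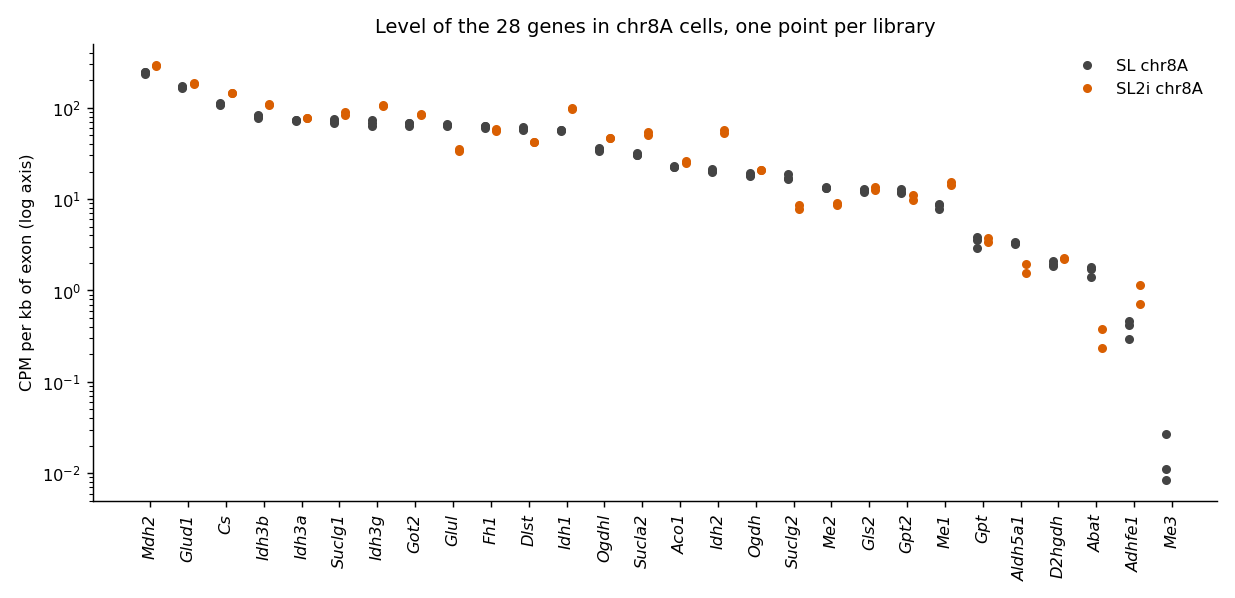
Level of each of the 28 genes in chr8A cells, in CPM per kilobase of exon on a log axis, with 1 point per library (SL, 3 libraries; SL2i, 2 libraries). Genes are ordered by their mean in SL, from Mdh2 at 241 to Me3 at 0.0155, and the 2 libraries of Me3 at 0 in SL2i are not drawn.

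In the vector cells the order began with Mdh2 (277 ± 16.8 CPM per kilobase, n = 3) and Glud1 (205 ± 6.21) as well. Glul, the glutamine synthetase that joins ammonia to glutamate, had rank 3 at 157 ± 2.48, against 64.4 ± 1.79 in chr8A in SL. Suclg2, the GTP-forming beta subunit of succinyl-CoA synthetase, lay at 9.79 ± 0.708 in vector cells and 17.3 ± 1.11 in chr8A. The 2 tables were normalized separately and these differences were not tested.

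Promoter sequences, 250 bases before to 50 bases after the annotated start, were taken from RefSeq on GRCm38.p6 for the 22 matching genes (29 windows). The authors counted on GRCm39, so the coordinates serve to place these windows alone. The 5 windows below are printed because their genes carry the main results: Idh1, Idh2, Sucla2 and Ogdhl, which rose in SL2i, and Suclg2, which fell there and differed most between the lines. Capitals mark the GC box GGGCGG on either strand (CCGCCC when it lies on the other strand) and the E-box CACGTG.
Idh1, chr1:65186430-65186729, minus strand: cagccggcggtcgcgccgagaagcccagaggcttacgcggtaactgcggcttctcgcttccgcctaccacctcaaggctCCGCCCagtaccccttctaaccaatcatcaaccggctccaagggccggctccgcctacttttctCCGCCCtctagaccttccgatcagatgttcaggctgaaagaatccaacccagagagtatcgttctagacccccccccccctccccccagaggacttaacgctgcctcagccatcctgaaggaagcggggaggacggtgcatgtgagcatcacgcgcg
Idh2, chr7:80115301-80115600, minus strand: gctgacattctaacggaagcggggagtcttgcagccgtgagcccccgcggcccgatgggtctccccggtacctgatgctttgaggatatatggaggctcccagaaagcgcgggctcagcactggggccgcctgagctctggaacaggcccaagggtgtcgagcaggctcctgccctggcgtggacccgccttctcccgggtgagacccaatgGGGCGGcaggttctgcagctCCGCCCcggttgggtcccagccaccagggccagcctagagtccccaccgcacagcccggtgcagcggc
Sucla2, chr14:73552536-73552835, plus strand: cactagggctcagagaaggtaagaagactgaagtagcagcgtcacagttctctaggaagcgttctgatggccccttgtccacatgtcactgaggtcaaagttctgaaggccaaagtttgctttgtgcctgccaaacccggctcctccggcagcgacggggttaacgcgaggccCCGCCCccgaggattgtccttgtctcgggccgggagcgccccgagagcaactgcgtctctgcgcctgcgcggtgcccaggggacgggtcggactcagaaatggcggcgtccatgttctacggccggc
Ogdhl, chr14:32321769-32322068, plus strand: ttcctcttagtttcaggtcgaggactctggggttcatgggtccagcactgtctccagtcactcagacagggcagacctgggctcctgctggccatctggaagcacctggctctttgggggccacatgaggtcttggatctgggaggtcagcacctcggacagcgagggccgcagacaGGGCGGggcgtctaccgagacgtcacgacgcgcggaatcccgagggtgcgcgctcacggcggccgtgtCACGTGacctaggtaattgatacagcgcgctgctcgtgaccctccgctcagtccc
Suclg2, chr6:95718797-95719096, minus strand: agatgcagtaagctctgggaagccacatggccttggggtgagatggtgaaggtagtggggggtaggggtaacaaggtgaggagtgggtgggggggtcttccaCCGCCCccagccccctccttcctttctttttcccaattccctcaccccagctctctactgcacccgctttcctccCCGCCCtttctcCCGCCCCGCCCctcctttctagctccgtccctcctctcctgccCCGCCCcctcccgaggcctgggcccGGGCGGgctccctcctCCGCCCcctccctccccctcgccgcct
The GC box was found in 16 of the 22 genes, against 38.2% of 27025 genes with such windows. The Suclg2 window held 7 of them, at -148, -73, -61, -56, -18, 8 and 24 bases from the start, those at -61 and -56 overlapping by 1 base. Idh1 and Idh2 held 2 each in the windows shown, and Sucla2 and Ogdhl held 1 each. The E-box was found in Ogdhl, at -5, and in Ogdh, against 8.09% of genes. The cyclic AMP response element TGACGTCA was found in Mdh2 and Ogdh (2.03% of genes), the NRF1 word GCGCATGC in Glud1 and Ogdh (3.05%), the extended nuclear receptor half-site AAGGTCA in Ogdh (5.38%) and the TATA box TATAAA in Got2 (15.7%). The STAT word TTCCNNGAA was in none of the 22 (5.60% of genes). All were searched on both strands, and GC boxes and TATA boxes were added after the values were seen. A match is a description of the letters and not of binding.

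The change of medium was the largest contrast for these genes. In chr8A cells 15 of the 27 tested genes rose from SL to SL2i and 8 fell (85.2%), in clone 1 cells 15 rose and 9 fell (88.9%), and in clone 2 cells 16 rose and 9 fell (92.6%). Among all 17178 genes tested, 72.8%, 73% and 73.1% passed in the 3 lines, with 36.1%, 35.9% and 35.8% higher and 36.8%, 37.1% and 37.2% lower. The median log2 fold change of the 27 was 0.17, 0.24 and 0.20, against 0.00, 0.00 and -0.01 for all genes. The 3 lines share no library, although 1 fit estimated their spread. In all 3 lines 22 genes passed in the same direction, 14 higher and 8 lower, and 26 of 27 had the same sign. The shares of all genes that did so were not counted, so these counts do not set the 27 apart from other genes. SL and SL2i libraries did not overlap for 25 of 27 genes in each line, against 80.8%, 81.3% and 81.5% of all genes. "Passed" means an adjusted p under 0.05 (edgeR quasi-likelihood F test, adjusted after Benjamini and Hochberg), and changes are log2 fold changes ± standard error. The changes printed use TMM factors, which put the median of all genes at 0.001, -0.002 and -0.007. Scaling by total counts instead puts it at -0.107, -0.07 and -0.084, so changes of about that size depend on the scaling.

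**Figure D2:**
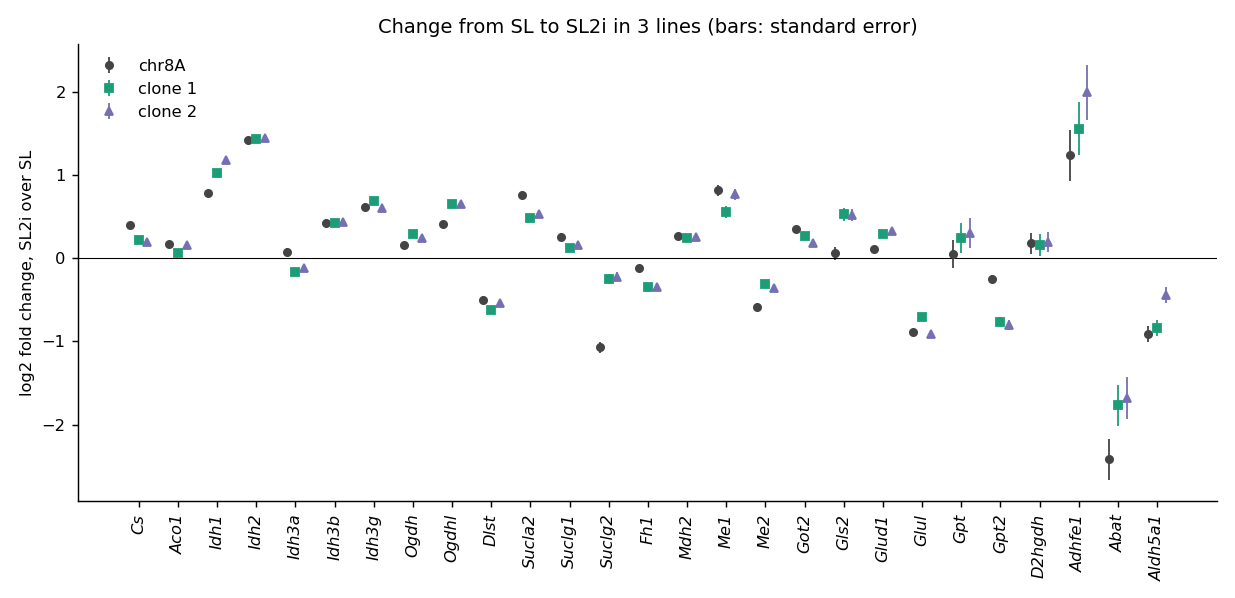
Log2 fold change from SL to SL2i for the 27 tested genes in chr8A (circles), clone 1 (squares) and clone 2 (triangles), with bars of 1 standard error (3 SL and 2 SL2i libraries per line). Idh2 lies at 1.42 to 1.45 in the 3 lines and Abat at -2.42 to -1.68, whereas Suclg2 lies at -1.07 in chr8A and at -0.25 and -0.22 in the clones.

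Of the 15 cycle genes, 11 rose and 3 fell in chr8A, 10 and 4 in clone 1, and 11 and 4 in clone 2. Among all genes tested, 72.8%, 73% and 73.1% passed, with 36.1%, 35.9% and 35.8% higher. Idh1 and Idh2 encode the isocitrate dehydrogenases that make NADPH. Idh2, the mitochondrial one, lay at 110, 113 and 118 CPM in the SL chr8A libraries and at 316 and 290 CPM in SL2i. In the clones its SL libraries lay at 89.5 to 96.5 CPM and its SL2i libraries at 248 to 266 CPM. No SL library reached an SL2i library, and Idh2 was 2.67-fold, 2.71-fold and 2.73-fold higher in chr8A, clone 1 and clone 2. On the log2 scale Idh2 rose by 1.42 ± 0.037, 1.44 ± 0.040 and 1.45 ± 0.039, with a largest adjusted p of 3.5e-57 in edgeR. Idh1, its counterpart in the cytosol and peroxisomes, lay at 136, 139 and 139 CPM in SL and at 241 and 235 CPM in SL2i in chr8A. In clone 2 it lay at 115, 111 and 111 and at 250 and 257 CPM. The clone was lower than chr8A in SL, while in SL2i the difference of 0.09 ± 0.041 did not pass (adjusted p = 0.11, edgeR). Idh1 rose by 0.79 ± 0.037, 1.03 ± 0.038 and 1.18 ± 0.037 in chr8A, clone 1 and clone 2.

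The NAD-dependent isocitrate dehydrogenase is built from 3 subunits, and their transcripts did not move together. Idh3g rose by 0.62 ± 0.045, 0.69 ± 0.047 and 0.61 ± 0.045 in chr8A, clone 1 and clone 2, and Idh3b by 0.43 ± 0.040, 0.42 ± 0.041 and 0.44 ± 0.040. Idh3a, the catalytic subunit, was at 0.08 ± 0.039 in chr8A, which did not pass (adjusted p = 0.066, edgeR), and fell by 0.16 ± 0.041 in clone 1 and by 0.11 ± 0.039 in clone 2. Idh3a was the only tested gene whose sign differed between lines. Its libraries in clone 1 lay at 168, 179 and 173 CPM in SL and at 154 and 156 CPM in SL2i, without overlap. In chr8A they lay at 173, 177 and 178 CPM and at 187 and 184 CPM, also without overlap but in the opposite order.

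Succinyl-CoA synthetase joins a shared alpha subunit, from Suclg1, with either an ATP-forming or a GTP-forming beta subunit. Sucla2, the ATP-forming one, lay at 73.9, 73.0 and 76.8 CPM in SL and at 131 and 121 CPM in SL2i in chr8A. Suclg2, the GTP-forming one, went the other way, from 83.1, 75.8 and 73.6 CPM to 35.1 and 38.6 CPM. Neither gene's SL and SL2i libraries overlapped. Sucla2 rose by 0.76 ± 0.046 in chr8A, 0.49 ± 0.048 in clone 1 and 0.54 ± 0.046 in clone 2. Suclg2 fell by 1.07 ± 0.063 in chr8A (2.10-fold), by 0.25 ± 0.057 in clone 1 and by 0.22 ± 0.055 in clone 2. Suclg1 rose by 0.26 ± 0.048, 0.13 ± 0.049 and 0.16 ± 0.047. The value of Suclg2 is uncertain, since 21% of its 30-base words also occur in other genes, chiefly Gm15163.

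The 2-oxoglutarate dehydrogenase complex also split. The E1 genes rose, Ogdh by 0.16 ± 0.041, 0.29 ± 0.041 and 0.24 ± 0.040 and its relative Ogdhl by 0.41 ± 0.040, 0.65 ± 0.040 and 0.65 ± 0.040. Dlst, the succinyltransferase core, fell by 0.50 ± 0.042, 0.62 ± 0.043 and 0.54 ± 0.042. In chr8A Dlst lay at 169, 160 and 163 CPM in SL and at 117 and 116 CPM in SL2i, and its SL and SL2i libraries did not overlap in any of the 3 lines. The remaining cycle genes changed by less than 0.5. Cs rose by 0.40 ± 0.032, 0.22 ± 0.033 and 0.20 ± 0.033 (6.33% of words shared), and Mdh2 by 0.27 ± 0.033, 0.24 ± 0.033 and 0.26 ± 0.033. Fh1, the fumarase gene, fell by 0.12 ± 0.046, 0.35 ± 0.049 and 0.34 ± 0.047. Aco1, the cytosolic aconitase that doubles as an iron sensor, rose by 0.17 ± 0.044 in chr8A and 0.16 ± 0.045 in clone 2, and at 0.06 ± 0.046 did not pass in clone 1 (adjusted p = 0.22, edgeR).

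**Figure D3:**
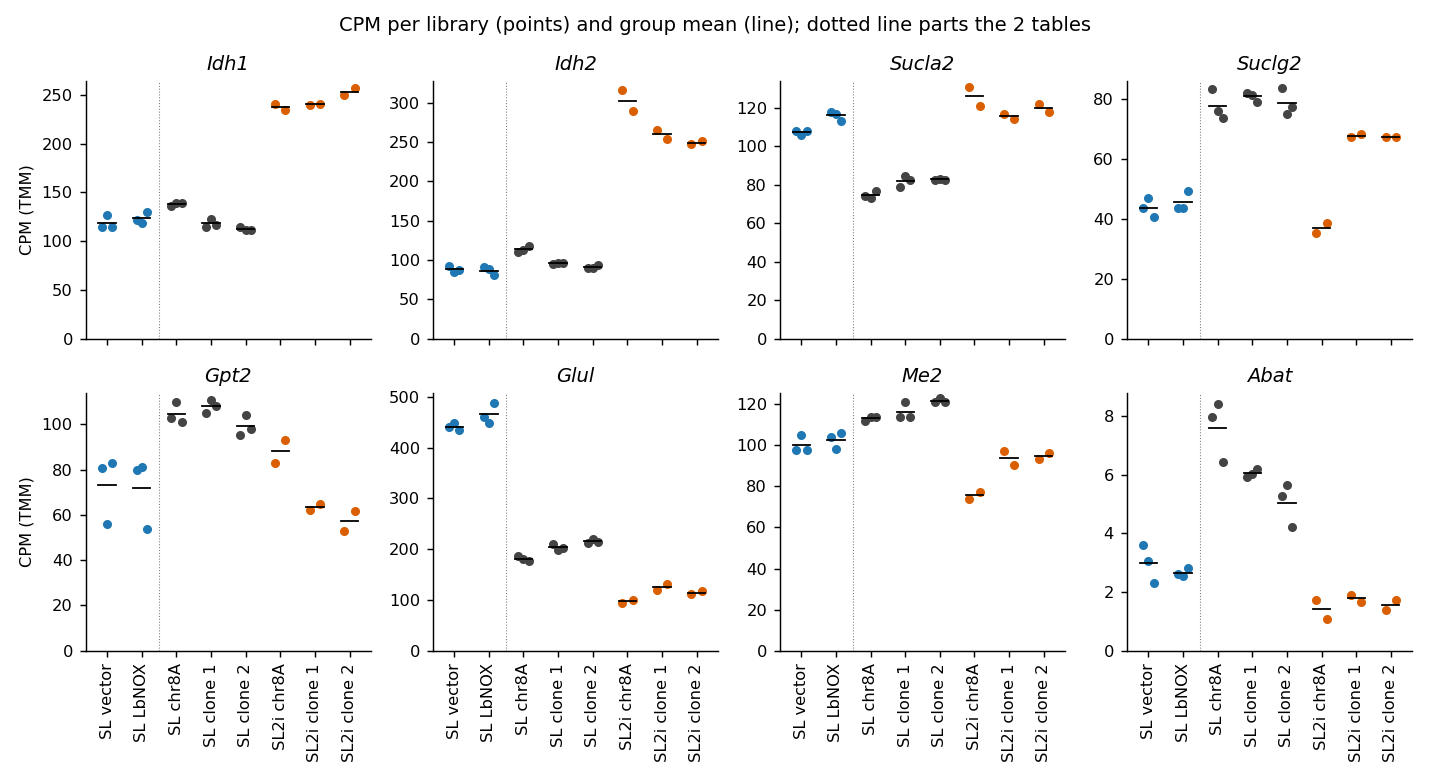
TMM-normalized CPM per library (points) and group means (lines) of 8 genes in the 8 groups, in SL of the LbNOX table (blue), SL of the other table (grey) and SL2i (orange). The dotted line separates the 2 tables, which were normalized separately, and the y axes start at 0. Idh1 and Idh2 are higher and Abat is lower in every SL2i library than in any SL library of the same table, and Suclg2 in SL2i lies at 35.1 and 38.6 CPM in chr8A and at 67.2 to 68.2 CPM in the clones.

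Malic enzymes convert malate to pyruvate. Me1, the NADPH-forming enzyme of the cytosol, lay at 31.4, 28.5 and 31.9 CPM in SL and at 52.3 and 55.4 CPM in SL2i in chr8A. Me2, the mitochondrial NAD-dependent one, lay at 112, 114 and 114 CPM and at 74.1 and 77.1 CPM. SL and SL2i did not overlap for either gene, and the genes went in opposite directions in each line. Me1 rose by 0.82 ± 0.068, 0.56 ± 0.071 and 0.77 ± 0.068, which is uncertain because 37.4% of its words are shared with other genes. Me2 fell by 0.58 ± 0.048, 0.31 ± 0.047 and 0.36 ± 0.045. Me3 had 0 to 4 reads per library in SL2i and was not tested.

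Of the 6 genes of glutamine, glutamate and transamination, 2 rose and 2 fell in chr8A, and 3 rose and 2 fell in each clone. Among all genes tested, 72.8%, 73% and 73.1% passed in chr8A, clone 1 and clone 2. Glul lay at 186, 180 and 176 CPM in SL and at 94.8 and 100 CPM in SL2i in chr8A, with no overlap. Glul fell by 0.89 ± 0.043 (1.85-fold), 0.71 ± 0.042 and 0.91 ± 0.042 (20.8% of words shared). Gpt2, the mitochondrial alanine transaminase that links pyruvate and glutamate to alanine and 2-oxoglutarate, fell by 0.25 ± 0.052 in chr8A, 0.76 ± 0.057 in clone 1 and 0.80 ± 0.057 in clone 2. Gpt, the cytosolic alanine transaminase, was at 0.05 ± 0.17, 0.25 ± 0.18 and 0.31 ± 0.18, and did not pass in any line (smallest adjusted p = 0.10, edgeR). Glud1 rose by 0.11 ± 0.031, 0.29 ± 0.031 and 0.33 ± 0.031 (10.7% of words shared).

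Gls2, the glutaminase known from liver, lay at 29.6, 32.5 and 31.0 CPM in SL and at 33.5 and 31.0 CPM in SL2i in chr8A. Those groups overlapped, and the change of 0.06 ± 0.076 did not pass (adjusted p = 0.52, edgeR). In the clones Gls2 lay at 25.4 to 27.1 CPM in SL and at 36.1 to 39.6 CPM in SL2i, and it rose by 0.53 ± 0.079 in clone 1 and 0.52 ± 0.075 in clone 2. Got2, the mitochondrial aspartate transaminase of the malate-aspartate shuttle, rose by 0.35 ± 0.038, 0.27 ± 0.039 and 0.19 ± 0.038. The value of Got2 is uncertain, since 31.1% of its words are shared, and its copy Gm10874 differed between the media in the opposite direction. Gm10874 had means of 58.4, 62.9 and 61.4 CPM in SL and 3.03, 3.48 and 2.78 CPM in SL2i in chr8A, clone 1 and clone 2, while Got2 had 159, 173 and 173 CPM in SL and 202, 208 and 198 CPM in SL2i. The drop of the copy was larger than the increase of Got2, and its part in that increase was not tested.

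The genes of 2-hydroxyglutarate and GABA metabolism were expressed at low levels. Abat, the GABA transaminase, fell most of all 27: it lay at 7.98, 8.42 and 6.42 CPM in SL and at 1.74 and 1.09 CPM in SL2i in chr8A. Its SL and SL2i libraries did not overlap in any line. Abat fell by 2.42 ± 0.25 in chr8A (5.35-fold), 1.77 ± 0.25 in clone 1 and 1.68 ± 0.25 in clone 2. Behind these values stand 11 to 18 reads per SL2i library. Aldh5a1, the succinate semialdehyde dehydrogenase that passes GABA carbon into the cycle, fell by 0.91 ± 0.10, 0.84 ± 0.10 and 0.44 ± 0.099. An antisense gene, 4932702P03Rik, overlaps 14.1% of its exon bases and reached 0.0966 CPM at most, and 15.5% of the words of Aldh5a1 are shared.

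Adhfe1, the transhydrogenase that turns 4-hydroxybutyrate to succinate semialdehyde and forms D-2-hydroxyglutarate, lay at 1.59, 1.44 and 1.01 CPM in SL and at 2.42 and 3.95 CPM in SL2i in chr8A. Adhfe1 rose by 1.24 ± 0.31, 1.56 ± 0.32 and 2.00 ± 0.33, on 25 to 40 reads per SL2i library. Without SL2i chr8A replicate 2 the first of these was 0.82 and did not pass (adjusted p = 0.076, edgeR). D2hgdh, the dehydrogenase that removes D-2-hydroxyglutarate, was at 0.18 ± 0.13, 0.16 ± 0.13 and 0.20 ± 0.12 and did not pass in any line (smallest adjusted p = 0.13, edgeR). Of its words 19.5% are shared.

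Ratios within a library, computed per kilobase, describe the shift between isozymes without a test. Idh2 over Idh1 was 0.361 ± 0.00862 (SD, n = 3) in chr8A in SL and 0.559 ± 0.0252 (n = 2) in SL2i. Suclg2 over Sucla2 was 0.561 ± 0.0447 and 0.158 ± 0.0198, and in SL2i the clones lay at 0.316 ± 0.008 and 0.302 ± 0.00616. Me1 over Me2 went from 0.633 ± 0.0422 to 1.67 ± 0.0214 in chr8A, thus from below 1 to above it, and in the clones it reached 1.24 ± 0.155 and 1.33 ± 0.0176. Idh3a over Idh3g was below 1 in every SL2i library, at 0.730 ± 0.0075 in chr8A against 1.07 ± 0.0642 in SL. Low ratios were not limited to SL2i. In SL, Idh3a over Idh3g was 0.938 ± 0.074 in vector cells and 0.933 ± 0.095 in LbNOX cells (n = 3 each). Suclg2 over Sucla2 was 0.22 ± 0.0183 and 0.211 ± 0.0204 there, below the clones in SL2i.

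Of 16 further cycle and entry enzymes, 10 rose and 2 fell in chr8A, 9 and 4 in clone 1, and 7 and 3 in clone 2. These are 75%, 81.2% and 62.5%, against 72.8%, 73% and 73.1% of all genes. Of 11 tested carriers of cycle intermediates, glutamine and glutamate, 6 rose and 3 fell in chr8A, and 4 rose and 3 fell in each clone, which is 81.8% in chr8A and 63.6% in each clone against the same shares of all genes. The glutamine importer genes Slc38a2 and Slc38a1 fell by 1.03 ± 0.032 and 0.85 ± 0.040 in chr8A, and the dicarboxylate carrier gene Slc25a10 rose by 0.81 ± 0.099.

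The SLC16A1 clones were compared with chr8A in SL to describe what differs in lines named for the pyruvate transporter gene. Both comparisons use the same 3 chr8A libraries, so they are not independent. In clone 1, 3 genes were higher and 5 lower (29.6%, against 16.6% of all genes tested, 8.83% higher and 7.77% lower). In clone 2, 5 were higher and 7 lower (44.4%, against 26.9%, 14.3% higher and 12.6% lower). The libraries did not overlap for 10 and 15 of 27 genes, against 31.7% and 38.7% of all genes. No change reached 2-fold, and the median log2 fold change was 0.00 and 0.01. Idh1 and Idh2 were lower. Idh2 lay at 94.9, 96.1 and 96.5 CPM in clone 1 and at 89.5, 90.4 and 93.6 CPM in clone 2, all below the 110 to 118 CPM of chr8A. Its log2 fold change was -0.25 ± 0.036 and -0.31 ± 0.035 (adjusted p = 5.2e-08 and 1.5e-12, edgeR). Idh1 was at -0.22 ± 0.033 and -0.30 ± 0.032 (adjusted p = 8.9e-08 and 1.1e-12, edgeR).

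Glul was higher in SL, at 210, 198 and 203 CPM in clone 1 and 213, 220 and 214 CPM in clone 2, all above the 176 to 186 CPM of chr8A. Its log2 fold change was 0.17 ± 0.032 and 0.26 ± 0.031 (adjusted p = 1.4e-05 and 7.4e-11, edgeR). Gls2 was lower at -0.24 ± 0.062 and -0.24 ± 0.058, and Ogdhl at -0.12 ± 0.034 and -0.18 ± 0.033. Sucla2 was higher at 0.14 ± 0.039 and 0.15 ± 0.038. The calls of Gls2, Sucla2 and Ogdhl in clone 1 each ended under at least 1 other setting. Leaving out SL chr8A replicate 2 gave Sucla2 an adjusted p of 0.051 and Ogdhl 0.072 (edgeR), and leaving out clone 1 replicate 2 gave Sucla2 0.091. Got2 was higher at 0.12 ± 0.033 and 0.13 ± 0.032. The remaining call in clone 1 was Idh3g at -0.11 ± 0.039 (adjusted p = 0.032, edgeR), whereas in clone 2 it was at 0.01 ± 0.037.

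In clone 2, 5 further genes passed in SL, and of these Glud1 also passed in the test of clone 2 against clone 1. Abat was lower at -0.60 ± 0.13 (adjusted p = 0.00017, edgeR), with 5.27, 5.64 and 4.21 CPM against 6.42 to 8.42 CPM in chr8A. Suclg1 and Me2 were higher at 0.16 ± 0.038 and 0.10 ± 0.034, and Glud1 was lower at -0.09 ± 0.027. Adhfe1 was at -0.79 ± 0.29 (adjusted p = 0.034, edgeR) on 12 to 33 reads per clone 2 library, with values of 0.744, 0.489 and 1.08 CPM that overlapped chr8A. Its adjusted p was above 0.05 under 7 of 22 other settings, including 0.14 without SL chr8A replicate 1, 0.092 without SL chr8A replicate 2, 0.067 without clone 2 replicate 1 and 0.27 without clone 2 replicate 2.

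**Figure D4:**
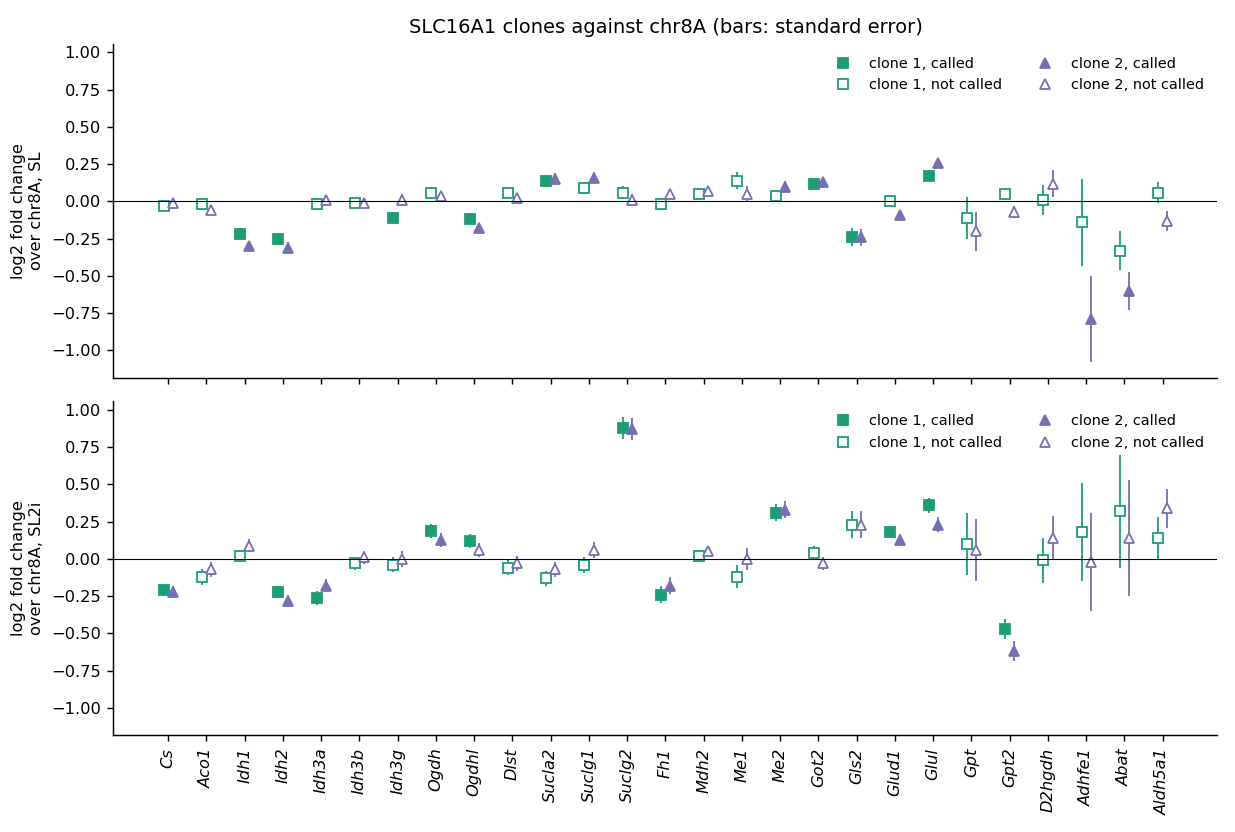
Log2 fold change over chr8A of the 27 tested genes in clone 1 (squares) and clone 2 (triangles), in SL (top, 3 libraries per group) and SL2i (bottom, 2 per group), with bars of 1 standard error. Filled marks passed and open marks did not. Suclg2 lies near 0 in SL and at 0.88 and 0.87 in SL2i, and Gpt2 lies near 0 in SL and at -0.47 and -0.62 in SL2i.

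The clones were also compared with chr8A in SL2i, where both comparisons share the 2 chr8A libraries. In clone 1, 6 genes were higher and 5 lower (40.7%, against 22.4% of all genes tested, 10.4% higher and 12.1% lower). In clone 2, 5 were higher and 5 lower (37%, against 20.6%, 9.74% higher and 10.8% lower). The libraries did not overlap for 18 and 15 of 27 genes, against 56.7% and 55.2% of all genes. Suclg2 had the largest difference. It lay at 67.2 and 68.2 CPM in clone 1 and at 67.2 and 67.2 CPM in clone 2, against 35.1 and 38.6 CPM in chr8A, which is 1.84-fold and 1.83-fold higher. Its log2 fold change was 0.88 ± 0.075 and 0.87 ± 0.075 (adjusted p = 5.1e-18 and 7.8e-18, edgeR). Gpt2 was lower, at 62.0 and 65.0 CPM in clone 1 and 53.0 and 61.6 CPM in clone 2, against 83.1 and 93.2 CPM. Its log2 fold change was -0.47 ± 0.066 and -0.62 ± 0.067 (adjusted p = 1.5e-08 and 2.6e-12, edgeR).

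Glul, Me2, Glud1 and Ogdh were higher in SL2i as well. Glul was at 0.36 ± 0.052 in clone 1 and 0.23 ± 0.052 in clone 2, Me2 at 0.31 ± 0.057 and 0.33 ± 0.057, Glud1 at 0.18 ± 0.035 and 0.13 ± 0.035, and Ogdh at 0.19 ± 0.047 and 0.13 ± 0.047. Lower were Idh2 at -0.22 ± 0.041 and -0.28 ± 0.041, Idh3a at -0.26 ± 0.046 and -0.18 ± 0.045, Cs at -0.21 ± 0.037 and -0.22 ± 0.037, and Fh1 at -0.24 ± 0.057 and -0.18 ± 0.056. Ogdhl passed in clone 1 (0.12 ± 0.045, adjusted p = 0.038, edgeR) and not in clone 2 (0.06 ± 0.045, adjusted p = 0.43, edgeR). Aldh5a1 came nearest among the genes of 2-hydroxyglutarate and GABA metabolism, at 0.34 ± 0.13 in clone 2 (adjusted p = 0.053, edgeR), and Gls2 was at 0.23 ± 0.090 in clone 1 (adjusted p = 0.056, edgeR). Among related genes Pck2, the mitochondrial enzyme that makes phosphoenolpyruvate from oxaloacetate, was lower at -0.67 ± 0.063 and -0.70 ± 0.063, and Slc38a2 at -0.40 ± 0.037 and -0.49 ± 0.037. The sum of 8 trophoblast markers was 20.5 to 22.8 CPM in SL2i chr8A and 34.3 to 40.3 CPM in the SL2i clones, with Tpbpa and Prl3d1 at 0 in every library. Of the 5 tested, Eomes, Gata3 and Krt7 were higher in both clones, and Cdx2 and Hand1 did not pass. These are 60% in each clone, against 22.4% and 20.6% of all genes. In SL that sum was 43.0 to 47.6 CPM in chr8A, 39.1 to 43.1 in clone 1 and 30.3 to 32.8 in clone 2. There Krt7 was lower in both clones, Hand1 was lower in clone 2 and Cdx2 was higher in clone 1. The sum of 8 primitive endoderm markers was 5.41 to 6.62 CPM in SL2i chr8A and 8.68 to 10.8 CPM in the SL2i clones. Of the 6 tested only Dab2 passed, at 2.19 ± 0.29 and 2.09 ± 0.29 in clone 1 and clone 2. Dab2 lay at 1.28 to 1.35 CPM in SL2i chr8A and at 4.26 to 7.39 CPM in the SL2i clones. Gata4 went the other way, at -0.91 ± 0.38 and -0.63 ± 0.36, and did not pass (adjusted p = 0.074 and 0.23, edgeR). In SL2i, 5 of the 10 pluripotency markers passed above chr8A for clone 1 and 2 below it (70%). For clone 2 these were 5 and 1 (60%). In SL, clone 1 had 3 above and 5 below, while clone 2 had 4 of each. That is 80% for either, against 16.6% and 26.9% of all genes. Esrrb lay at -0.28 ± 0.03 and -0.13 ± 0.029 in SL, but at 0.36 ± 0.035 and 0.28 ± 0.035 in SL2i. Utf1 lay at 0.88 ± 0.05 and 0.78 ± 0.05 in SL2i. The part of these lists in the differences was not tested.

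The difference in the medium response was tested directly, as the change from SL to SL2i averaged over the clones minus that in chr8A. Of the 27 genes, 6 had a more positive and 5 a more negative change in the clones (40.7%, against 21.2% of all genes tested, 9.55% higher and 11.6% lower). Suclg2 had the largest, at 0.84 ± 0.075 (adjusted p = 1.2e-16, edgeR), followed by Gpt2 at -0.53 ± 0.066 (adjusted p = 4.4e-10), Gls2 at 0.47 ± 0.093 (adjusted p = 3.9e-05) and Idh1 at 0.32 ± 0.045 (adjusted p = 2.1e-08). Me2 was at 0.25 ± 0.058 and Sucla2 at -0.24 ± 0.056. The Sucla2 call ended without SL2i chr8A replicate 1, where it was -0.17 (adjusted p = 0.065, edgeR). For Idh2 the difference was 0.03 ± 0.047 and did not pass (adjusted p = 0.73, edgeR). Pck2 was at -0.80 ± 0.064 and Slc38a2 at -0.61 ± 0.039. Among the 10 pluripotency markers 80% passed here, 6 with a more positive and 2 with a more negative change. Their part in the differences was not tested. This contrast reuses the libraries of the preceding comparisons and restates their differences.

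Clone 2 was also set against clone 1, a comparison without chr8A. In SL 2 of the 27 genes passed (7.41%, against 4.4% of all genes tested, 1.69% higher and 2.71% lower), Idh3g at 0.13 ± 0.039 (adjusted p = 0.041, edgeR) and Glud1 at -0.09 ± 0.028 (adjusted p = 0.028, edgeR). Aldh5a1 followed at -0.20 ± 0.070 (adjusted p = 0.096, edgeR). Leaving out any 1 of the 6 SL clone libraries ended at least 1 of the 2 calls. The libraries did not overlap for 12 of 27 genes in SL and 15 in SL2i, against 21.5% and 36.3% of all genes. In SL2i none passed in edgeR (0.157% of all genes did, 0.0873% higher and 0.0699% lower), and DESeq2 called none. An unadjusted p under 0.05 (edgeR) was seen for 2 of the 27, and for 1414 of all 17178 genes tested. There the log2 differences ran from -0.21 to 0.21, and the smallest p belonged to Glul at -0.12 ± 0.050, Gpt2 at -0.15 ± 0.071 and Suclg1 at 0.10 ± 0.056.

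LbNOX cells were compared with vector cells to see whether these transcripts differ when an added enzyme oxidizes NADH. None of the 27 genes passed in edgeR and DESeq2 called none, while 0.0372% of all 16119 genes tested passed in edgeR (0.0062% higher and 0.031% lower). An unadjusted p under 0.05 (edgeR) was seen for 1 of the 27, and for 605 of all 16119 genes. The log2 fold changes ran from -0.20 (Adhfe1) to 0.11 (Sucla2 and Gpt), with a median of 0.00. Sucla2 lay at 108, 106 and 108 CPM in vector cells and at 118, 117 and 113 CPM in LbNOX cells, without overlap, a difference of 0.11 ± 0.044 (adjusted p = 1, edgeR). Glul followed at 0.08 ± 0.040 and Aco1 at -0.11 ± 0.060. The groups did not overlap for 3 of 27 genes (Sucla2, Got2 and Adhfe1), against 9.64% of all genes.

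Gpt2, chosen after its values were seen, varied within both groups of the LbNOX table. It lay at 80.9, 55.9 and 82.9 CPM in vector replicates 1 to 3 and at 80.1, 81.3 and 54.0 CPM in LbNOX replicates 1 to 3. Vector replicate 2 and LbNOX replicate 3 were thus low, while the other 4 libraries lay within 80.1 to 82.9 CPM. The difference between the groups was -0.03 ± 0.23 on all libraries, and -0.02 ± 0.05 without those 2 libraries, a setting chosen after seeing the data. The same 2 libraries stood apart on the first principal component (30.1% of the variance), at 22.3 and 22.4 against -13.7 to -8.2. Pck2 lay at 66.5 and 62.7 CPM there and at 85.0 to 92.1 CPM in the other 4. Asns, the asparagine synthetase gene, lay at 226 and 210 CPM against 310 to 325 CPM, and Slc38a2 went the other way, at 932 and 951 CPM against 722 to 755 CPM. Which property of these libraries goes with the difference was not tested.

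**Figure D5:**
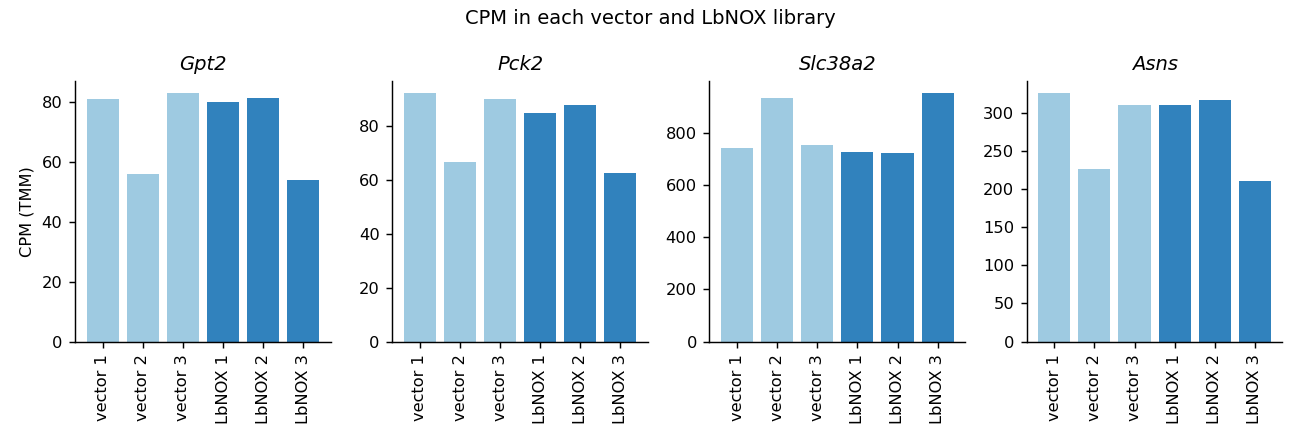
TMM-normalized CPM of Gpt2, Pck2, Slc38a2 and Asns in each vector library (light bars) and LbNOX library (dark bars), with y axes from 0. In vector replicate 2 and LbNOX replicate 3, Gpt2 lies at 55.9 and 54.0 CPM against 80.1 to 82.9 CPM in the other 4 libraries, Pck2 and Asns are also lower, and Slc38a2 is higher.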

How the data were processed

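Poly(A) RNA of mouse ESCs was prepared with a stranded kit, per the labels' protocols. The authors aligned reads with DRAGEN 3.10 to GRCm39 and counted them with featureCounts of Subread, per the submitters' processing notes. The strand setting for counting was not given in the sources used here. Deposited values are raw counts per gene in 2 tables, which were normalized and tested separately.

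Counts were tested with edgeR 4.0.16 in R 4.3.3 (filterByExpr, TMM, robust quasi-likelihood F test, 1 mean per group, Benjamini-Hochberg adjustment over 16119 and 17178 genes, threshold 0.05). The 15 libraries of the second table shared 1 fit. CPM used TMM library sizes, and levels per kilobase used the deposited gene length. Shared sequence is how many of the 30-base words of a gene, in percent, also occur in other genes of the reference. At 5% or more the value is uncertain in every comparison, also where only the percentage or no remark is printed. This holds for Cs, Suclg2, Me1, Me3, Got2, Glud1, Glul, D2hgdh and Aldh5a1. No 2 libraries of a group agreed within sampling noise (chi-square per degree of freedom 1.87 to 14). The procedure was tested on simulated data.

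The genes and lists were chosen with earlier results of these data known. Genes were named by a rule: up to 10 called genes with the largest change for each medium comparison, up to 6 for the others, and the 3 smallest p where fewer than 3 were called, with genes so named followed elsewhere and the rest given by counts or values. Alternatives were RLE factors, DESeq2 1.42.0, other filters, equal depth, a replicate block, only the groups compared, and leaving out each library. Results for some genes of the further lists are not reported here.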

Additional observations from a re-analysis of the deposited data

Results flagged for a closer look

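The change from SL to SL2i differed between the clones and chr8A for 11 genes, by the test of the difference itself (edgeR, adjusted p under 0.05), in log2 units as clones minus chr8A. The difference was 0.84 for Suclg2, 0.47 for Gls2, 0.32 for Idh1, 0.25 for Me2, 0.24 for Ogdhl and 0.20 for Glud1. It was -0.53 for Gpt2, -0.24 for Sucla2, -0.23 for Fh1, -0.21 for Idh3a and -0.19 for Cs. For Idh3a the chr8A libraries lay higher in SL2i and those of both clones lay lower.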

How the results depend on the processing

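The counts of called genes stayed within 1.5 times of the reported ones under every alternative run, except for clone 2 against clone 1 in SL. There the count of 2 became 1 with RLE factors, 0 without the filter, 1 in DESeq2, 1 at equal depth and 4 with only the groups compared. Leaving out each library gave 0 to 2 there, 6 to 8 for clone 1 and 9 to 12 for clone 2 in SL, 10 to 12 and 7 to 12 in SL2i, 20 to 23, 23 to 24 and 24 to 26 for the medium in chr8A, clone 1 and clone 2, and 9 to 12 for the interaction. Of 1496 values of named genes, 1462 kept their direction and call, 31 lost the call and 3 reversed. The reversed ones were the difference of Gpt2 between LbNOX and vector, 0.05 without vector replicate 1, 0.06 without vector replicate 3 and 0.14 without LbNOX replicate 3. Leaving out each library gave it -0.19 to 0.14, none of them called. Same-numbered libraries shared little deviation from their group means: of 36 pairs, with r from -0.16 to 0.13, 1 was over 0.1 and 2 were under -0.1. Whether they were handled together cannot be told from these values. A replicate block gave counts of 0 for LbNOX, 8 and 13 for the clones in SL, 11 and 11 in SL2i, 23, 24 and 25 for the medium, 3 and 0 between the clones, and 12 for the interaction. The interaction uses all 6 groups, so no fit on fewer groups was run. Depth limits the genes with few reads, Abat, Adhfe1 and Me3, and SL2i rests on 2 libraries per group.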
